A study of Mus musculus with 6 samples.

Results

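Genes of lysosomal protein breakdown and collagen uptake, 10 in number, are described in mouse mammary gland stromal fibroblasts from Sharpin-deficient and wild-type mice. They are the cysteine cathepsins Ctsb, Ctsl, Ctsk, Ctsh and Ctsz, the aspartic cathepsin Ctsd, the asparaginyl endopeptidase Lgmn, the cystatins Cst3 and Cstb, and the collagen receptor Mrc2. All 10 were found by symbol among the 23337 genes of the count tables, and all 10 were among the 13442 genes that passed the low-count filter. The genes were chosen by function and on genotype differences already seen in these libraries, so their genotype values are a description and support nothing by themselves. The 3 mutant samples, labelled Sharpincpdm and called Sharpin-cpdm here, were homozygous for cpdm (cpdm/cpdm, Sharpin deficient), and the other 3 were wild type (wt/wt). All came from C57BL/KaLawRij mice 7 weeks old, and each sample pooled the glands of 3 mice. Tissue was digested with collagenase, stromal cells were isolated by differential centrifugation, and the cells that attached were grown to confluence with serum at passage 0. The labels name no sort for a cell type. Bulk RNA was sequenced, so fewer cells that express a gene and less RNA per cell cannot be told apart.

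Fibroblasts remodel collagen along an outer and an inner route. Outside the cell, membrane-bound and secreted proteases cut fibres. Inside the cell, collagen fragments bound by Endo180, the mannose receptor family protein encoded by Mrc2, are taken up by clathrin-coated pits and delivered to lysosomes. There, cysteine cathepsins (papain-like proteases with a cysteine in the active site) and the aspartic protease cathepsin D digest them. Cathepsin K is known for cutting intact triple-helical collagen, above all in osteoclasts, and legumain, the product of Lgmn, cuts after asparagine and helps to process several cathepsins. Cystatins are tight-binding inhibitors of these cysteine proteases: cystatin C, from Cst3, is secreted, and cystatin B, from Cstb, acts in the cytosol and nucleus.

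Libraries held 13570649 to 14940100 counts assigned to genes in Sharpin-cpdm and 13642440 to 15656196 in wild type. Levels are given as CPM, the gene's count relative to the library's total gene count (counts per 1 M). The 10 genes drew between 1489 and 40959 counts in a library, so that the counting error of the lowest was 2.59%. Sharpin, the check of the labels, had 10.5, 9.13 and 9.5 CPM in Sharpin-cpdm libraries 1 to 3, against 24.5, 25.2 and 31.2 CPM in the wild-type ones, a log2 fold change of -1.48 ± 0.12 (SE) with the replicate number as a block. Its adjusted p in edgeR's test was 0.00595 with the block and 0.272 without it. All 12 fibroblast markers passed the filter, 2 of them fell with the block (Lum and Dcn), and their summed level was 84410 to 99130 CPM in Sharpin-cpdm, against 83830 to 104300 CPM in wild type. Of 15 endothelial markers, 13 fell with that block, and the summed level was 555 to 816 CPM in Sharpin-cpdm, against 729 to 1303 CPM in wild type. Of 6 pericyte markers 3 fell, and the 1 tested adipocyte marker fell. Beside these counts, 2.11% of all tested genes fell with the block. Of 10 tested epithelial markers 0 were called, and 9 had a log2 fold change below 0, beside 50.5% of all tested genes. The part of these cells in the results below was not tested.

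Start regions of members are shown because Mitf and its relatives bind E-boxes with the letters CACGTG, the core of an element shared by many lysosomal genes. RefSeq windows (GRCm38.p6, which is mm10) from 250 bases before to 50 after a start were held for 6 of the 10 genes, in 7 windows, Lgmn having 2. CACGTG, which reads the same on both strands, lay in 3 of the 7 windows, against 7.15% of 32851 windows of all genes. The longer TCACGTG, searched on both strands and overlapping it, lay in 2 of the 7, against 3.77% of all windows. In 6 lists of related machinery, 97 genes had windows, 114 in number, and 24 of these windows, from 22 genes, held CACGTG. The windows printed here are on the gene's own strand, 5′ to 3′, with capitals marking CACGTG. Ctsd is at chr7:142387778-142388077 (minus strand), with matches that begin 245 and 98 bases before the start. Lgmn is at chr12:102439043-102439342 (minus strand), the downstream of its starts, with a match 49 bases before the start. Ctsl is at chr13:64370471-64370770 (minus strand), with a match 236 bases before the start. Ctsk, shown as a gene that varied much with no match in this window, is at chr3:95498960-95499259 (plus strand). A match is a description of the letters and says nothing of binding in these cells.
Ctsd: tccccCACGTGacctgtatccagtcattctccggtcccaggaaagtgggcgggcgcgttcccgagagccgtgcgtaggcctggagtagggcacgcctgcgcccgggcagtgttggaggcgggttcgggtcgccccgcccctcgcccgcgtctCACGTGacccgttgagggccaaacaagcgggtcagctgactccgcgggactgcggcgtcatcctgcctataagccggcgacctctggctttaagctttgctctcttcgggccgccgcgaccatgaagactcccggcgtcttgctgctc
Lgmn: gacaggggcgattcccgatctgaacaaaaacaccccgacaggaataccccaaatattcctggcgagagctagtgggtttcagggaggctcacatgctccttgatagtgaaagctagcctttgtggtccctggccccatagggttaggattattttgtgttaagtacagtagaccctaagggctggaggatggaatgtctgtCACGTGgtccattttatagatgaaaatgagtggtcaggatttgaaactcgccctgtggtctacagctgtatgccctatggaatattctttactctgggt
Ctsl: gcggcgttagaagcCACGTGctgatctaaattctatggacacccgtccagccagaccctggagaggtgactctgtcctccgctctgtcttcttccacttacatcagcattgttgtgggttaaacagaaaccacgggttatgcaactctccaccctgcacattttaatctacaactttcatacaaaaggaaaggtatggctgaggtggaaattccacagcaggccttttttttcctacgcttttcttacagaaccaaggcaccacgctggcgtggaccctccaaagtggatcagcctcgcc
Ctsk: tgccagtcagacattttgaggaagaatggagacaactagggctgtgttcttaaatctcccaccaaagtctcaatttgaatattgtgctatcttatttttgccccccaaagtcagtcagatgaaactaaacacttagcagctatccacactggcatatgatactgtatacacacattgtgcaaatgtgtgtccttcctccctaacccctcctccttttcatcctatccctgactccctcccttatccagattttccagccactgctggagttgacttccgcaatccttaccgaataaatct

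**Figure D1:**
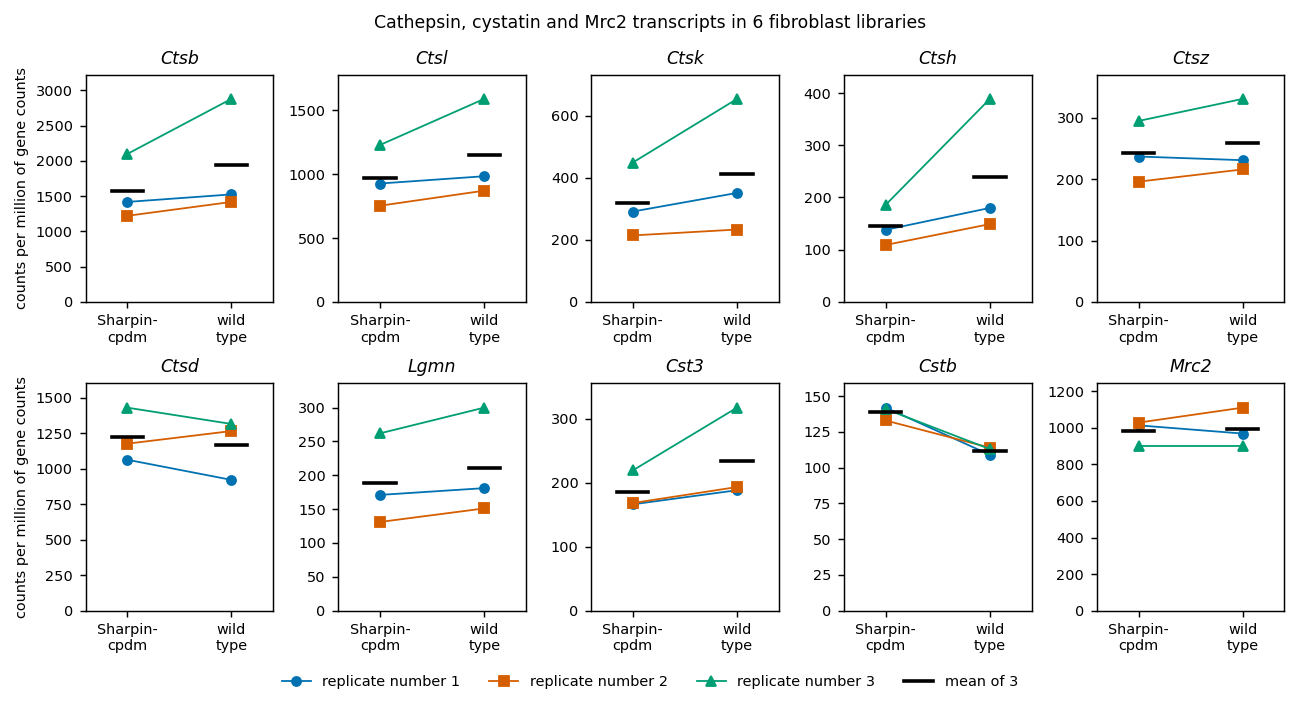
Level of each gene in CPM (linear axis from 0), with Sharpin-cpdm at the left and wild type at the right of each panel. Coloured lines join libraries of the same replicate number and black bars are means of 3. Libraries numbered 3 lie on top for 8 genes, Cstb separates the genotypes, and Mrc2 is nearly level.

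Cstb, the cytosolic inhibitor, was higher in every Sharpin-cpdm library and was the only gene of the 10 whose groups did not overlap. Its level was 142, 133 and 141 CPM in Sharpin-cpdm libraries 1 to 3, against 109, 114 and 113 CPM in wild-type libraries 1 to 3. The lowest mutant library thus stood above the highest wild-type library. The means were 139 ± 5.05 CPM in Sharpin-cpdm, against 112 ± 2.39 CPM in wild type (SD, n = 3 each), and the replicates of a genotype lay within 1.07-fold of each other in Sharpin-cpdm and within 1.04-fold in wild type. The log2 fold change was 0.30 ± 0.07 (SE) without a replicate block and 0.30 ± 0.05 with it. Among all tested genes, 5.94% had groups that did not overlap.

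Cst3, the secreted inhibitor, was lower in the mutant at each number and was not called. It had 166, 168 and 219 CPM in Sharpin-cpdm libraries 1 to 3, against 188, 193 and 317 CPM in wild-type libraries 1 to 3. The groups overlapped because Sharpin-cpdm library 3 lay above wild-type libraries 1 and 2. With the block its log2 fold change was -0.32 ± 0.08, and it was -0.18 ± 0.05 when both libraries numbered 3 were left out. The ratio of Cstb to Cst3, each per kilobase of mRNA, was 1.22, 1.13 and 0.92 in Sharpin-cpdm libraries 1 to 3, against 0.828, 0.842 and 0.506 in wild-type libraries 1 to 3. These ratios did not overlap between genotypes, but neither did Cstb alone. Both genes were chosen with their genotype differences known, so nothing is read from this separation.

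Ctsh, an aminopeptidase among the cysteine cathepsins, had the log2 fold change farthest from 0 of the 10 genes. It had 138, 109 and 186 CPM in Sharpin-cpdm libraries 1 to 3, against 180, 149 and 389 CPM in wild-type libraries 1 to 3. Wild-type library 3 was far above the other 5 libraries, and without regard to number the groups overlapped. The Sharpin-cpdm library was at 0.767, 0.733 and 0.479 of the wild-type library with the same number. The log2 fold change with the block was -0.65 ± 0.14, and it was -0.41 ± 0.06 when both libraries numbered 3 were left out.

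Ctsk, the collagenolytic cathepsin, had 291, 214 and 449 CPM in Sharpin-cpdm libraries 1 to 3, against 351, 233 and 654 CPM in wild-type libraries 1 to 3. Its level spanned 2.1-fold within Sharpin-cpdm and 2.81-fold within wild type, while the means were 318 ± 120 CPM in Sharpin-cpdm, against 413 ± 217 CPM in wild type (SD, n = 3 each). With the block the log2 fold change was -0.33 ± 0.09, and without the libraries numbered 3 it was -0.19 ± 0.06. Ctsb, an endopeptidase that also removes dipeptides from carboxyl ends, had 1417, 1220 and 2097 CPM in Sharpin-cpdm libraries 1 to 3, against 1524, 1417 and 2879 CPM in wild-type libraries 1 to 3. Ctsl, a broad endopeptidase, had 927, 753 and 1229 CPM in Sharpin-cpdm libraries 1 to 3, against 984, 871 and 1590 CPM in wild-type libraries 1 to 3. For both, the mutant library was lower at each number and the groups overlapped. The log2 fold changes with the block were -0.27 ± 0.08 for Ctsb and -0.23 ± 0.07 for Ctsl.

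Lgmn, which processes cathepsins, had 171, 131 and 262 CPM in Sharpin-cpdm libraries 1 to 3, against 181, 151 and 300 CPM in wild-type libraries 1 to 3. This is lower at each number by a small step, and the blocked fit gave a log2 fold change of -0.17 ± 0.05. Ctsz, a carboxypeptidase, had 237, 196 and 295 CPM in Sharpin-cpdm libraries 1 to 3, against 231, 216 and 331 CPM in wild-type libraries 1 to 3. Its direction was not the same at every number, and its log2 fold change was -0.10 ± 0.06.

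Ctsd and Mrc2 showed no genotype direction shared by the 3 numbers. Ctsd, the main aspartic protease of lysosomes, had 1063, 1176 and 1430 CPM in Sharpin-cpdm libraries 1 to 3, against 921, 1265 and 1315 CPM in wild-type libraries 1 to 3. Mrc2, the uptake receptor, had 1014, 1029 and 899 CPM in Sharpin-cpdm libraries 1 to 3, against 969, 1111 and 899 CPM in wild-type libraries 1 to 3. The log2 fold changes with the block were 0.06 ± 0.06 for Ctsd and -0.03 ± 0.05 for Mrc2.

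**Figure D2:**
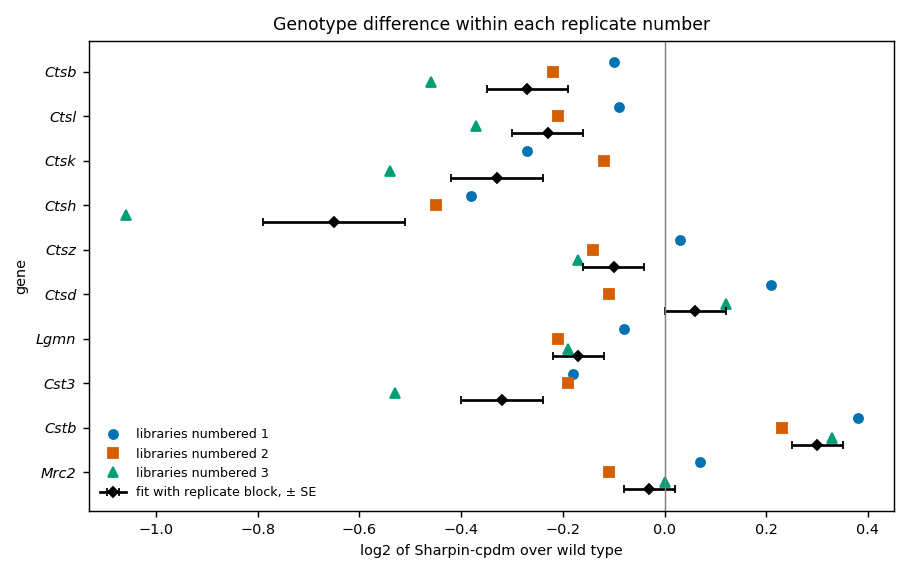
Log2 ratio of Sharpin-cpdm over wild type between same-numbered libraries (coloured symbols) and the fitted log2 fold change with the replicate block (black diamonds, bars ± SE). Of the 10 genes, 6 lie below 0 at all 3 numbers and Cstb lies above 0 at all 3, and the ratio of Ctsh at number 3 is the lowest of all, at -1.06.

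Genotype was compared with edgeR's quasi-likelihood test over all 13442 genes with Benjamini-Hochberg adjustment and a threshold of 0.05, first without and then with the replicate number as a block. Without the block 0 of the 10 genes and 0% of all genes were called. At an unadjusted p under 0.05 there were 307 genes, Cstb among them, while DESeq2 called 10 genes and limma-voom 0, none of the 10 described. With the block 1 of the 10, Cstb, was called (adjusted p = 0.0318), beside 2.51% of all genes. Higher calls made up 0.394% of all genes and lower calls 2.11%, so that 84.3% of calls were lower, against 64.1% with offsets for GC content and length. DESeq2 with the block also called Ctsh (adjusted p = 0.000427), which edgeR did not (adjusted p = 0.0758). The 6 genes that were lower at all 3 numbers stand beside 18.5% of all tested genes, and the 1 gene higher at all 3 stands beside 22.7%. The median log2 fold change of the 10 was -0.20, beside -0.002 for all tested genes. Because the genes were picked with this contrast known, nothing is read from these counts.

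The log2 fold change of Cstb was 0.26 ± 0.05 without the libraries numbered 1, 0.33 ± 0.07 without those numbered 2 and 0.31 ± 0.06 without those numbered 3, beside 0.30 with all. The adjusted p of these smaller blocked edgeR fits were 0.0338, 0.112 and 0.163 in that order, and calls over all genes numbered 673, 128 and 44. Without the libraries numbered 1, 5 of the 10 genes were called (Cstb higher, and Ctsb, Ctsl, Ctsh and Cst3 lower), beside 4.95% of all genes. Without those numbered 2 or 3 none was. At an unadjusted p under 0.05 these last fits each had 6 of the 10, beside 1702 of 13517 and 1538 of 13465 genes. The genes were picked with this contrast known, so nothing is read from these counts.

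Both genotypes shared a pattern over the replicate numbers. The libraries numbered 3 were the highest within both genotypes for 8 of the 10 genes, beside 27.2% of all tested genes. Number 2 was the lowest within both genotypes for Ctsb, Ctsl, Ctsk, Ctsh, Ctsz and Lgmn, whereas number 1 was the lowest for Ctsd and Cst3. The shares of all tested genes with these lowest numbers are not given here, so nothing is read from them. From number 2 to number 3 the level of Ctsk differed 2.1-fold in Sharpin-cpdm and 2.81-fold in wild type, and that of Lgmn 2.01-fold in Sharpin-cpdm and 1.99-fold in wild type. Mrc2 had the opposite order, with number 2 highest and number 3 lowest in both genotypes.

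In the test of replicate number beside genotype, 9 of the 10 genes were called, against 37.2% of all 13442 genes. By edgeR the adjusted p lay between 0.00047 for Lgmn and 0.0203 for Mrc2, and Cstb, at 0.845, was the exception. The labels do not say what a number stands for, and the pairing by number was itself read from these libraries, so the numbers here name libraries and not a known batch. At number 3 the log2 deviation from the genotype mean was 0.56 in Sharpin-cpdm and 0.80 in wild type for Ctsk, 0.40 in Sharpin-cpdm and 0.83 in wild type for Ctsh, and 0.54 in Sharpin-cpdm and 0.57 in wild type for Lgmn. Mrc2 lay at -0.12 in Sharpin-cpdm and -0.14 in wild type at the same number.

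**Figure D3:**
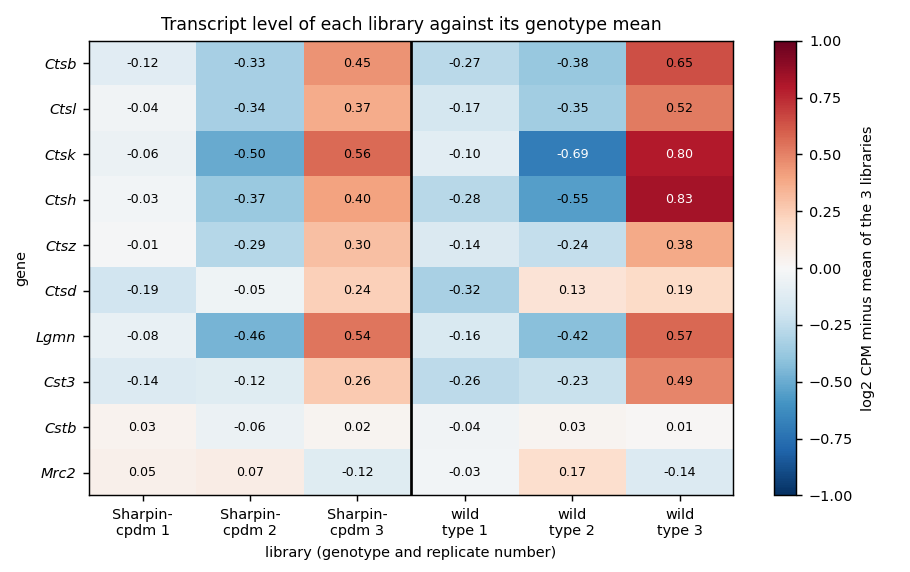
Log2 CPM of each library minus the mean of the 3 libraries of its genotype, as colour and as printed value, with Sharpin-cpdm at the left. The columns numbered 3 are high for the cathepsins, Lgmn and Cst3 in both genotypes, up to 0.83 for Ctsh in wild type, while Cstb stays between -0.06 and 0.03.

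Macrophages express many cathepsins and could survive in such cultures, so the summed level of their markers is given. The 15 macrophage markers in the tables had summed levels of 161, 432 and 273 CPM in Sharpin-cpdm libraries 1 to 3, against 89.7, 514 and 231 CPM in wild-type libraries 1 to 3. This sum was highest at number 2 in both genotypes, and the order of each marker is not given here. Lyz1 and Cx3cr1 stayed under 1 CPM in every library, and between genotypes the blocked edgeR fit called 0 of the 12 tested macrophage markers. For replicate number all 12 of them were called, beside 37.2% of all tested genes. The part of macrophages in the results was not tested. The summed level of 6 osteoclast markers was 3.09, 6.16 and 8.57 CPM in Sharpin-cpdm libraries 1 to 3, against 2.42, 6.58 and 5.13 CPM in wild-type libraries 1 to 3. Of these, Atp6v0d2 and Tnfrsf11a were tested and not called, Dcstamp was listed at 0, and Calcr, Ocstamp and Oscar stayed under 1 CPM. A count of 0 allows up to 3 counts, or 0.192 to 0.221 CPM, in a library.

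To compare levels between genes, CPM was divided by the length of the longest transcript that GENCODE pairs with a RefSeq mRNA. On this scale Ctsd and Ctsl were the most abundant, at 575 ± 88.5 and 492 ± 122 CPM per kilobase in Sharpin-cpdm and 549 ± 101 and 583 ± 196 in wild type (SD, n = 3 each). Ctsb followed at 333 ± 97.0 CPM per kilobase in Sharpin-cpdm and 409 ± 172 in wild type. Lgmn and Ctsh were the least abundant, at 94.5 ± 33.9 and 89.4 ± 24.1 CPM per kilobase in Sharpin-cpdm and 106 ± 39.5 and 148 ± 80.7 in wild type. In wild type every pair of neighbours in this order overlapped in range except Cst3, whose 219 to 369 CPM per kilobase lay above the 181 to 189 of Cstb. In Sharpin-cpdm those 2 overlapped, at 193 to 255 for Cst3 and 221 to 236 for Cstb. In the mutant's own order, neighbours did not overlap between Ctsb, at 257 to 442 CPM per kilobase, and Cstb, or between Ctsz, at 136 to 205, and Lgmn, at 65.6 to 132. With all annotated exons as the length, Ctsl had 177 CPM per kilobase in wild type and Cst3 had 184, so the places of these genes depend on the transcript assumed.

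The 5 cysteine cathepsins summed to 1211, 985 and 1682 CPM per kilobase in Sharpin-cpdm libraries 1 to 3, against 1324, 1137 and 2316 in wild-type libraries 1 to 3. Both cystatins together came to 0.354, 0.423 and 0.291 of that sum in Sharpin-cpdm, against 0.302, 0.363 and 0.24 in wild type. The ratio was higher in the mutant at each number, and the groups overlapped. Its genes were chosen with their genotype differences known, so nothing is read from this direction. The 10 genes took 0.557%, 0.513% and 0.721% of all gene counts in Sharpin-cpdm, against 0.564%, 0.572% and 0.879% in wild type.

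Profiles most like those of the 3 most variable genes were sought among all tested genes, by the root-mean-square difference of gene-centred log2 CPM over the 6 libraries. For Ctsb these were Hpse, the lysosomal and secreted heparanase, at 0.0564 and Fndc3a at 0.0598, and Ctsl came eighth, at 0.0829. For Ctsk they were Rin2 at 0.077 and Adamts1, a secreted proteoglycanase, at 0.0776. For Ctsh they were Rasgrf2 at 0.0766 and Icosl at 0.0954, both at low levels of at most 2.88 and 8.01 CPM. These names are a description.

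Of the wider machinery, 4 of 101 tested genes fell and 0 rose with the block, 3.96% against 2.51% of all tested genes. Without the block 0 were called, with 3 at an unadjusted p under 0.05, beside 307 of all 13442 genes. These genes form 6 lists written from textbook roles. Mitf, a basic helix-loop-helix factor of the MiT/TFE family that drives lysosomal genes and, in osteoclasts, Ctsk, was the one that fell among 15 genes for sorting to lysosomes and their regulation. It had 15.6, 8.48 and 31.5 CPM in Sharpin-cpdm libraries 1 to 3, against 23.0, 13.4 and 48.3 CPM in wild-type libraries 1 to 3. The mutant was lower at each number, with number 3 highest and number 2 lowest in both genotypes. That order was also seen for Ctsb, Ctsl, Ctsk, Ctsh, Ctsz and Lgmn. Number 3 was highest in both genotypes for 27.2% of all tested genes, whichever number was lowest. The share of all tested genes with the full order is not given here, so that order cannot be set against a background. Whether Mitf had a part in the levels of these cathepsin genes and Lgmn was not tested. The blocked edgeR log2 fold change of Mitf was -0.63 ± 0.07 (adjusted p = 0.0138). Without the libraries numbered 2 or 3 the adjusted p was 0.0553 or 0.151. Its relatives Tfeb, Tfe3 and Tfec were not called, with log2 fold changes of -0.06 ± 0.11, 0.09 ± 0.05 and -0.45 ± 0.22 in that order, and were named after their values were seen. Tfec was lower in the mutant at each number, at levels of at most 5.94 CPM, and was highest at number 2 in both genotypes.

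Of 14 genes for collagen uptake and breakdown 3 fell and 0 rose with the block, beside 2.11% and 0.394% of all tested genes. Pla2r1, a receptor of the same mannose receptor family as Mrc2, had 17.1, 14.6 and 30.7 CPM in Sharpin-cpdm libraries 1 to 3, against 28.5, 19.0 and 48.7 CPM in wild-type libraries 1 to 3. Fap, a membrane serine protease that trims gelatin and collagen fragments, had 83.9, 78.5 and 69.7 CPM in Sharpin-cpdm, against 108, 95.4 and 90.6 CPM in wild type. These groups did not overlap, as was so for 5.94% of all tested genes. Cav1, the coat protein of caveolae, had 140, 166 and 201 CPM in Sharpin-cpdm, against 174, 200 and 266 CPM in wild type. The log2 fold changes were -0.62 ± 0.09 for Pla2r1, -0.35 ± 0.05 for Fap and -0.34 ± 0.05 for Cav1. In the blocked edgeR fit the adjusted p were 0.0282, 0.0259 and 0.0292 in that order. Without the libraries numbered 1 they were 0.0195, 0.023 and 0.0194. Without those numbered 2 they were 0.0344, 0.0719 and 0.0825, and without those numbered 3 they were 0.192, 0.140 and 0.144. Cav1 is also abundant in endothelial cells, and 13 of 15 endothelial markers fell in the same libraries, where the median log2 fold change of the 15 was -0.81. The share of endothelial cells in the result for Cav1 was not tested.

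The blocked edgeR fit called 0 of 37 lysosomal hydrolases, and 31 had a log2 fold change below 0, beside 50.5% of all tested genes. With offsets for GC content and length 40.3% of all tested genes were below 0. The number of hydrolases below 0 in that fit is not given here, so the 31 cannot be set against that share. The median of the hydrolases was -0.09, beside -0.002 for all genes. Hexa, a lysosomal glycosidase subunit with a p among the smallest of the list, had 146, 99.7 and 216 CPM in Sharpin-cpdm libraries 1 to 3, against 165, 115 and 262 CPM in wild-type libraries 1 to 3. The mutant was lower at each number and the groups overlapped. Its log2 fold change was -0.23 ± 0.05, and edgeR's adjusted p was 0.0701 with all libraries. Without those numbered 1, 2 or 3 it was 0.0416, 0.232 or 0.306 in that order. Of 27 genes of the lysosomal membrane and proton pump 0 were called and 14 were below 0, a share near that of all tested genes. Lamp2, a membrane glycoprotein, and Atp6v0d1, a pump subunit, had log2 fold changes of -0.11 ± 0.05 and 0.12 ± 0.04.

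Of 17 other cathepsins 6 were tested and 0 were called. The placental genes Cts3, Cts6, Cts7, Cts8, Ctsj, Ctsm, Ctsq and Ctsr were listed at 0 in every library. Ctsf, a lysosomal relative, had a log2 fold change of -0.27 ± 0.09 and Ctsw, known from cytotoxic lymphocytes, had 0.40 ± 0.18 at levels of at most 4.78 CPM. Of 13 other cystatins 2 were tested and 0 were called, with Fetub at -0.73 ± 0.24 and Cst6 at -1.01 ± 0.42, at levels of at most 3.73 CPM. Replicate number was called for 71 of the 101 genes, 70.3% against 37.2% of all tested genes, among them 31 of the 37 hydrolases.

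**Figure D4:**
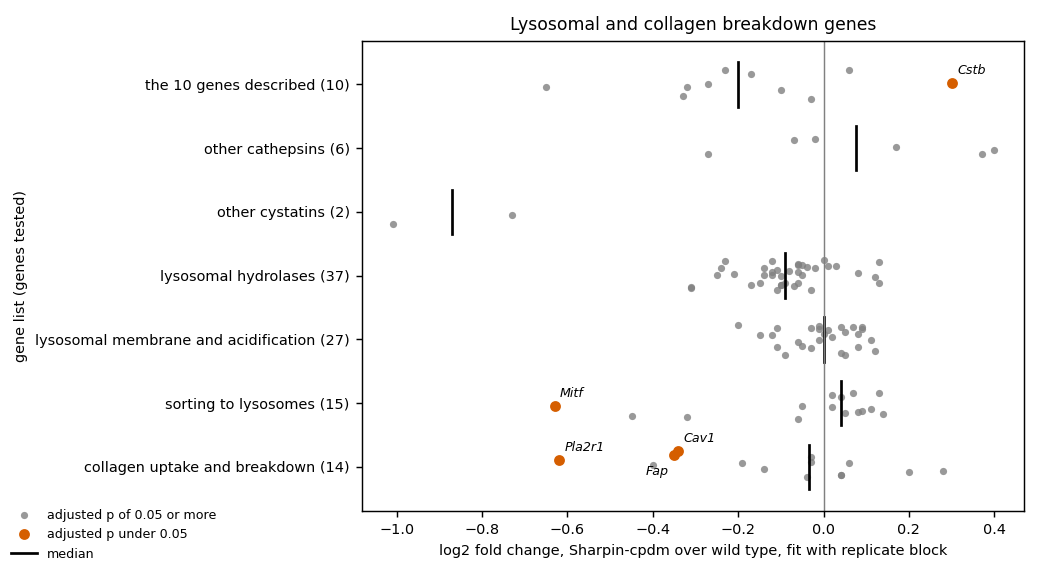
Log2 fold change of Sharpin-cpdm over wild type in the fit with the replicate block, for the 10 genes and the tested genes of 6 lists (numbers in brackets). Orange points, named, had an adjusted p under 0.05 and black bars are medians. The only orange point above 0 is Cstb, and the hydrolases centre at -0.09.

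The gene of Cstb lies at chr10:78425669-78427622 (plus strand), that of Ctsh at chr9:90054152-90076089 (plus strand) and that of Mrc2 at chr11:105292643-105351139 (plus strand), in GENCODE M21. No other annotated exon overlaps theirs or those of Ctsk, Lgmn and Cst3. Exons of Fdft1 overlap Ctsb and exons of Nelfcd overlap Ctsz on the opposite strand, Gm49369 overlaps Ctsd on its own strand, and an antisense transcript and a pseudogene overlap Ctsl. The library kit does not mark strand, so reads in those stretches cannot be assigned with certainty and these 4 genes are less certain.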

How the data were processed

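The authors deposited 1 table per library with a whole-number count of reads per gene symbol, 23337 genes and 5 summary rows. The submitters' processing notes name mm10 and the tools HTSeq 0.5.4p3, TopHat2 2.0.10 and bcl2fastq 1.8.4. Annotation, strand and overlap settings: not given in the sources used here. Per the labels' protocols the kit was TruSeq RNA v2. The summary rows (48.84% to 51.18% of entries, mostly alignments that were not unique) were left out of library sizes and tests.

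Counts were tested in R 4.3.3 with edgeR 4.0.16 (filterByExpr, TMM factors of 0.969 to 1.03, quasi-likelihood F-test, two-sided, Benjamini-Hochberg adjustment over 13442 genes). The SE of a log2 fold change is its absolute value divided by the root of F, and log2 CPM used a prior count of 2. DESeq2 1.42.0, limma-voom (limma 3.58.1), other scalings and filters, offsets for GC content and length, and leaving out libraries were alternatives. Deviations from genotype means correlated at 0.457, 0.809 and 0.737 between same-numbered libraries and at most 0.00676 between the others. A gene's deviations cancel out within a genotype, so the low values partly follow from the high ones and are no separate support. On the same-number values, same-numbered libraries were treated as pairs, a pairing that the labels do not state. P-values without the block measure the spread between these pools of mice. Those with the block measure the spread left after what same-numbered pools share is removed. Within a genotype no 2 libraries agreed within sampling noise (chi-square per degree of freedom of 16.91 to 85.24).

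The members and lists were chosen with earlier results of these data known. Named are all members and, of each list, the called genes or, where none was, the 2 with the smallest p; exceptions are marked, and 1 gene that the rule names is not reported here. Intervals of counts cover counting error only.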

Additional observations from a re-analysis of the deposited data

How the results depend on the processing

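Without the replicate block, 0 genes were called in edgeR's test under each scaling, each filter and each omission of a library (307 at an unadjusted p under 0.05 with all libraries), and DESeq2 called 10, none of them among the 10 genes or the lists. With the replicate block, all genes called, members called and list genes called were 337, 1 and 4. They were 341, 2 and 5 in DESeq2, 379, 1 and 4 in limma-voom, 432, 1 and 5 with offsets for GC content and length, and, in fits chosen after seeing the data, 365, 1 and 4 without scaling beyond library totals and 336, 1 and 4 with DESeq2 size factors. With those offsets 64.1% of calls were lower, against 84.3% without them, and the median of all genes was 0.034. Leaving out the libraries of a number under the block gave 673, 128 and 44 genes (without numbers 1, 2 and 3), 0 to 5 members and 0 to 8 list genes. Replicate number called 4753 to 5002 genes and 9 members in each fit.

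Of 210 log2 fold changes of members under alternatives, 13 turned their sign. Over all alternatives the lowest and highest values were -0.55 and 0.084 for Ctsb, -0.71 and 0.11 for Ctsk, -0.45 and 0.048 for Ctsl, -0.26 and 0.10 for Ctsz, -0.48 and 0.16 for Lgmn, -0.10 and 0.15 for Ctsd, and -0.10 and 0.074 for Mrc2. The positive values of Ctsb, Ctsk, Ctsl and Ctsz all came without wild-type library 3 and without the block. With the replicate block, Ctsd was at -0.0059 without number 1 and Mrc2 at 0.0084 without number 2. With the offsets Mrc2 was at 0.042. Ctsh (-0.99 to -0.20), Cst3 (-0.49 to -0.06) and Cstb (0.26 to 0.33) kept their sign in every alternative run. Cst3 was at -0.06 without wild-type library 3, against -0.35 with all libraries, both without the block.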
